A study of Homo sapiens with 12 samples.

Results

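The genes described here are 38 enzymes of purine and pyrimidine metabolism, measured by RNA sequencing in SJSA-1 cells, an established human osteosarcoma line. They were chosen by name, each symbol matched exactly 1 Ensembl identifier, and they make up 38 of the 59248 rows of the deposited gene tables. By role, 18 act in de novo synthesis, 8 in salvage, 5 in the interconversion of nucleotides and 7 in breakdown. All 38 had enough counts to be tested, so none was lost to the filter on low counts.

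Purine and pyrimidine nucleotides are the building blocks of RNA and DNA and carry energy and signals. Cells build the rings de novo from amino acids, bicarbonate, one-carbon units and the activated sugar phosphoribosyl pyrophosphate (PRPP), or recover free bases and nucleosides by salvage, which costs less energy. Breakdown enzymes remove amino groups, phosphates and sugars and finally open or oxidise the rings. Proliferating tumour cells have a high demand for nucleotides, and several antimetabolite drugs act on enzymes of these routes or are activated by them.

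In the control group, shNC, SJSA-1 cells stably expressed a scramble shRNA (6 libraries). In the silenced group, sh1, they stably expressed RUNX2 shRNA-1 (6 libraries). RUNX2 is a transcription factor of osteoblast differentiation. Both constructs were delivered by lentivirus and both groups were selected with puromycin, so each group is a selected population, and a single shRNA is set against a single scramble sequence. Separate cultures or infections behind the libraries of a group are not described, so the p-values take the variation among libraries as their error, and that variation may be purely technical.

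The libraries held 15328312 to 19992974 gene counts in shNC and 11239638 to 16346022 in sh1. The library sh1 replicate 3 stood apart. It had the lowest total, and 1.23% of its counts fell in rows that have no Ensembl identifier, against 0.468% to 0.531% in the other sh1 libraries. RUNX2 itself was at 4.34, 4.52 and 5.68 FPKM (lowest, median and highest library) in shNC and at 2.65, 3.03 and 3.36 FPKM in sh1. FPKM is the deposited level, a fragment count corrected for gene length and for the depth of the library. The groups did not overlap for RUNX2, and the fitted sh1 level was 62.0% of that of shNC (log2 fold change -0.69, SE 0.076, edgeR adjusted p = 4.6e-06). Of 10 markers of the osteoblast lineage, 5 were under 1 FPKM in every library (SP7, ALPL, BGLAP, IBSP and COL1A2), while SPARC was at 272 to 322 FPKM in shNC and 410 to 537 FPKM in sh1. The summed level of the 10 markers, 284 to 337 FPKM in shNC and 427 to 556 FPKM in sh1, was mostly SPARC. Of the other tested markers, COL1A1 (1.49) and CDH11 (0.93) were also called higher on the log2 scale. SPP1 (-0.20) and COL1A2 (0.22) were not called. The COL1A1 levels were low, 0.387 to 0.811 FPKM in shNC and 0.879 to 1.96 FPKM in sh1. All 4 leukocyte, 3 endothelial and 3 neural markers were under 1 FPKM in every library. Of 5 epithelial markers, KRT8 and KRT18 were expressed and 3 were under 1 FPKM throughout, and the summed level of the list was 79.2 to 93.5 FPKM in shNC and 86.8 to 115 FPKM in sh1, with KRT8 called higher (0.48) and KRT18 not called (0.05). The part of these shifts in the results that follow was not tested.

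Genes were compared with edgeR's quasi-likelihood test on the counts and called at an adjusted p under 0.05 (Benjamini-Hochberg over all tested genes). Fold changes are sh1 over shNC on the log2 scale. Of the 38 genes, 6 were higher in sh1, 8 were lower and 24 were not called. The called share was 36.8%, beside 26.1% of the 16489 tested genes, which were not matched to the 38 by expression level. By direction, 15.8% of the 38 were higher (12.8% of all tested genes) and 21.1% were lower (13.3% of all tested genes). For 6 of the 38 genes (15.8%) the FPKM values of the groups did not overlap, as for 11.9% of all tested genes. The changes were small. The median log2 fold change was -0.016 for the 38 genes and -0.0035 for all tested genes, the median absolute log2 fold change was 0.16 for both, and the 38 genes ranged from -0.43 (DUT) to 0.75 (ADSS1). Without sh1 replicate 3 the same 6 genes were higher and the same 8 lower.

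**Figure D1:**
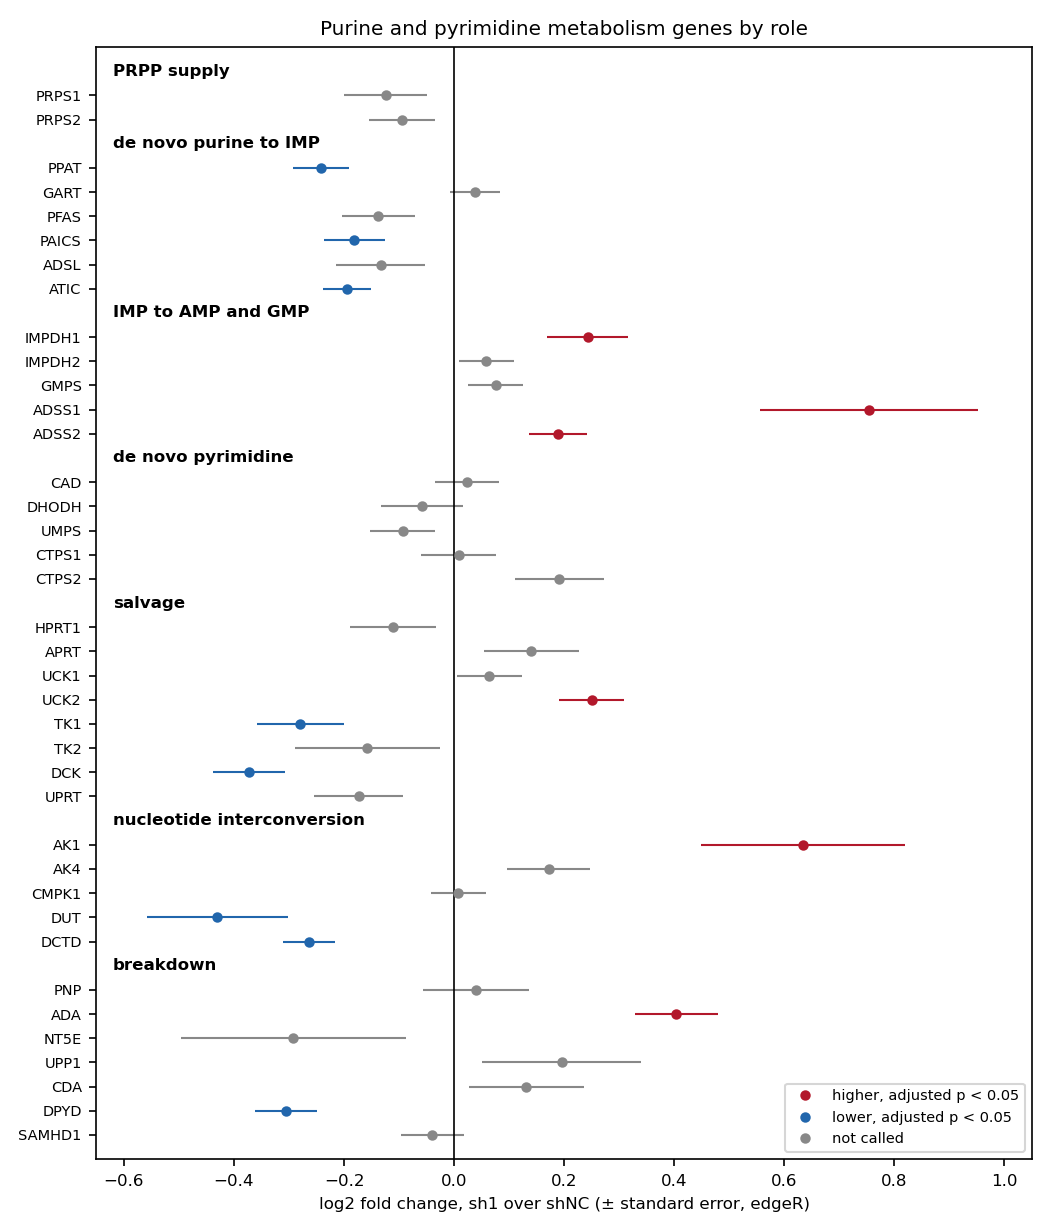
Log2 fold change (sh1 over shNC, horizontal axis) of each of the 38 genes, grouped by role, with bars of ± 1 standard error from edgeR. Red points were called higher, blue points lower and grey points were not called. Called genes of the route to IMP lie left of 0, from -0.24 to -0.18, those of the branch from IMP to AMP and GMP lie right of 0, from 0.19 to 0.75, and no gene of pyrimidine synthesis was called.

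Before the levels, sequences around the transcription start are shown for the called genes that held one of 3 short motifs: CACGTG, an E-box bound by MYC and related factors, TGTGGT, the core bound by RUNX factors, and TTTGGCGC or TTTCGCGC, forms of the site of E2F factors, which drive S phase genes. The motifs were chosen with the fold changes known, both strands were searched (CACGTG reads the same on both), no matches of different motifs overlapped, and matches are described without a test. The windows ran from 250 bases before to 50 bases after each RefSeq start (GRCh38.p14), and 36 of the 38 genes had at least 1 window. ADSL and IMPDH2 had none. A gene can have several windows: the 36 genes had 57, and all 27058 genes with a window had 34796. Shares are therefore also given per window. CACGTG occurred in windows of 6 of these 36 genes (16.7%), beside 8.72% of the 27058 genes. Per window the shares were 12.3% and 7.20%. The genes with CACGTG were PPAT, PAICS, ATIC and DCK, which were lower in sh1, and AK4 and DHODH, which were not called. Thus 4 of the 8 lower genes held it, in 4 of their 16 windows. None of the 6 higher genes held it in their 9 windows. PPAT and PAICS lie head to head on chromosome 4 with 125 bases between their starts, and their CACGTG is the same site, inside both windows. TGTGGT occurred in 4 of the 36 genes (11.1%: AK1, AK4, CDA and PAICS), beside 15.6% of all genes with a window. Per window the shares were 7.02% and 13.1%. An E2F form occurred in 3 of the 36 genes (8.33%: DCK, DUT and GART), beside 1.39% of all genes with a window. Per window the shares were 5.26% and 1.14%. The shared PPAT and PAICS promoter is printed in full and the others as short stretches, with the motif in capitals.
PPAT, whole window on the minus strand, chr4:56435566-56435865: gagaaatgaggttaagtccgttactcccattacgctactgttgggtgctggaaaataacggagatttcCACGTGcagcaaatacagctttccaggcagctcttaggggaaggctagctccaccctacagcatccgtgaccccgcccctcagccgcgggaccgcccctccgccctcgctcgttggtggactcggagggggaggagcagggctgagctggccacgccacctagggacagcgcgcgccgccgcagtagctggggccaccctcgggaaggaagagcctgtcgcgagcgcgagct
ATIC, E-box, plus strand, chr2:215311991-215312040: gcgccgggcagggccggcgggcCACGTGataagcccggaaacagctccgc
ATIC, further E-box, plus strand, chr2:215312066-215312108: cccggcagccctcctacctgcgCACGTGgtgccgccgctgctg
DCK, E-box, plus strand, chr4:70993511-70993560: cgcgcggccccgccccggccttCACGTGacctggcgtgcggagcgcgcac
DCK, E2F form read on the other strand, plus strand shown, chr4:70993648-70993697: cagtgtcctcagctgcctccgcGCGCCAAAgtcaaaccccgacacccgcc
DUT, E2F form, plus strand, chr15:48332148-48332197: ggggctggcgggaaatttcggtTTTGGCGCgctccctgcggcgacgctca
AK1, RUNX core, minus strand, chr9:127873524-127873573: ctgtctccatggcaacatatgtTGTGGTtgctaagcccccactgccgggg
AK1, RUNX core read on the other strand, minus strand shown, chr9:127873569-127873618: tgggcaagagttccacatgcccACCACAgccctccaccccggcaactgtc
PAICS, RUNX core at another RefSeq start, plus strand, chr4:56410430-56410479: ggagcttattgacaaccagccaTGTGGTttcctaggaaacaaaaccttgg

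De novo synthesis starts with PRPP, made by PRPS1 and PRPS2, and neither gene was called. PRPS1 was at 24.4, 29.2 and 31.4 FPKM (lowest, median, highest) in shNC and 22.9, 26.1 and 29.2 FPKM in sh1 (log2 fold change -0.12, SE 0.076, edgeR adjusted p = 0.24). PRPS2 was at 35.3, 41.0 and 45.0 FPKM in shNC and 36.5, 38.3 and 41.2 FPKM in sh1 (-0.09, SE 0.060, adjusted p = 0.27). For both genes the ranges of the groups overlapped.

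The 6 enzymes that build the purine ring up to IMP were lower or not called. Of these, 3 were lower, 0 were higher and 3 were not called. For comparison, 13.3% of all tested genes were lower and 12.8% were higher. The median log2 fold change of the 6 enzymes was -0.16. The first committed step belongs to PPAT, the amidophosphoribosyltransferase that adds nitrogen to PRPP. PPAT was at 20.2, 22.1 and 23.4 FPKM in shNC and 16.9, 18.9 and 19.6 FPKM in sh1, so that every sh1 library lay under every shNC library (-0.24, SE 0.051, adjusted p = 0.0019). Its head-to-head neighbour PAICS carries out a carboxylation and the addition of aspartate. PAICS was at 60.4, 66.6 and 74.1 FPKM in shNC and 57.7, 59.7 and 61.0 FPKM in sh1. The PAICS groups overlapped slightly, between 60.4 and 61.0 FPKM, and the fold change was small (-0.18, SE 0.056, adjusted p = 0.023). This call was lost without sh1 replicate 1, 2 or 5 or shNC replicate 5 (adjusted p = 0.056, 0.051, 0.052 and 0.068).

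ATIC, which performs the last pair of steps to IMP, was at 44.5, 47.1 and 49.8 FPKM in shNC and 39.8, 41.7 and 43.3 FPKM in sh1. The groups of ATIC did not overlap (-0.19, SE 0.044, adjusted p = 0.0033). The other enzymes of the route were not called. GART, a trifunctional enzyme of the early steps, had 52.1 ± 2.72 FPKM in shNC and 54.1 ± 2.37 FPKM in sh1 (SD, n = 6 libraries per group, as for all such values here), with a log2 fold change of 0.04. PFAS, the amidotransferase that acts after the formyl transfer by GART, had 16.1 ± 1.54 and 14.8 ± 1.13 FPKM (-0.14, adjusted p = 0.14). ADSL, which releases fumarate both on this route and in AMP synthesis, had 2.14 ± 0.144 and 1.97 ± 0.183 FPKM (-0.13, adjusted p = 0.24).

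In the branch that turns IMP into AMP and GMP the calls went the other way. Of the 5 enzymes, 3 were higher (60.0%, beside 12.8% of all tested genes), 0 were lower and 2 were not called. Their median log2 fold change was 0.19. The contrast between these small groups was not tested. IMPDH1 and IMPDH2 oxidise IMP on the way to GMP. IMPDH1 was at 10.6, 11.6 and 13.98 FPKM in shNC and 12.4, 14.3 and 15.8 FPKM in sh1. The groups overlapped through the highest shNC library (0.24, SE 0.073, adjusted p = 0.020). IMPDH2, the most abundant of the 38 transcripts, was at 103, 114 and 116 FPKM in shNC and 109, 119 and 124 FPKM in sh1, a difference within the spread of the libraries (0.06, SE 0.050, adjusted p = 0.41). GMPS, which completes GMP, had 31.8 ± 1.53 and 33.9 ± 1.2 FPKM (0.08, adjusted p = 0.28).

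On the AMP side, ADSS2, the adenylosuccinate synthase of most tissues, was at 25.5, 27.8 and 29.3 FPKM in shNC and 28.3, 32.3 and 33.9 FPKM in sh1. All but the lowest sh1 library lay above every shNC library (0.19, SE 0.053, adjusted p = 0.013). ADSS1, the muscle-type form, was at 0.136, 0.232 and 0.293 FPKM in shNC and 0.231, 0.389 and 0.470 FPKM in sh1. The ADSS1 values rest on 12 to 44 counts per library, and sh1 replicate 3 fell among the shNC values (0.75, SE 0.20, adjusted p = 0.0092). On the log2(FPKM + 1) scale, which understates changes of low genes, the ADSS1 difference was 0.18.

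None of the 5 genes of de novo pyrimidine synthesis was called, and their median log2 fold change was 0.0084. CAD, the trifunctional enzyme of the first steps, had 17.3 ± 1.21 FPKM in shNC and 17.8 ± 1.28 FPKM in sh1 (0.02, SE 0.058, adjusted p = 0.81). DHODH, the mitochondrial dehydrogenase of the pathway, had 2.02 ± 0.131 and 1.96 ± 0.123 FPKM (-0.06, adjusted p = 0.60). UMPS, which makes UMP, had 13.3 ± 1.04 and 12.6 ± 0.576 FPKM (-0.09, adjusted p = 0.26). CTPS1 and CTPS2 convert UTP to CTP. CTPS1 was at 11.8, 13.6 and 14.4 FPKM in shNC and 12.2, 13.5 and 15.4 FPKM in sh1 (0.01, adjusted p = 0.94), and its sign turned when sh1 replicate 3 was left out. CTPS2 was at 2.56, 3.02 and 3.28 FPKM in shNC and 3.07, 3.40 and 3.81 FPKM in sh1 (0.19, SE 0.081, adjusted p = 0.091), and passed the threshold without sh1 replicate 1 (adjusted p = 0.049).

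Among the 8 salvage enzymes, 1 was higher, 2 were lower and 5 were not called. The lower ones were TK1 and DCK, the kinases that phosphorylate deoxynucleosides in the cytosol. DCK, which activates deoxycytidine and purine deoxynucleosides as well as drugs such as cytarabine, was at 12.4, 13.9 and 15.5 FPKM in shNC and 10.004, 10.8 and 11.9 FPKM in sh1. Every sh1 library lay under every shNC library (-0.37, SE 0.066, adjusted p = 0.00043). TK1, the thymidine kinase of S phase cells, was at 40.4, 44.4 and 48.6 FPKM in shNC and 32.4, 35.5 and 46.6 FPKM in sh1. The TK1 groups overlapped through sh1 replicate 1, while the other sh1 libraries reached 38.6 FPKM at most (-0.28, SE 0.079, adjusted p = 0.014). The mitochondrial thymidine kinase TK2 was at 1.18, 1.54 and 2.22 FPKM in shNC and 1.13, 1.45 and 1.74 FPKM in sh1, with broad overlap (-0.16, SE 0.13, adjusted p = 0.41).

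UCK1 and UCK2 phosphorylate uridine and cytidine. UCK2 was at 10.1, 11.7 and 12.3 FPKM in shNC and 12.1, 13.9 and 15.2 FPKM in sh1, and only the lowest sh1 library fell within the shNC range (0.25, SE 0.060, adjusted p = 0.0048). UCK1 was at 11.6, 13.0 and 13.7 FPKM in shNC and 12.8, 13.7 and 14.8 FPKM in sh1 (0.06, SE 0.058, adjusted p = 0.45). The base salvage enzymes were not called. HPRT1, which recovers hypoxanthine and guanine, had 52.1 ± 5.63 and 48.8 ± 4.28 FPKM (-0.11, adjusted p = 0.32). APRT, which recovers adenine, had 19.3 ± 2.08 and 21.5 ± 2.72 FPKM (0.14, adjusted p = 0.25). UPRT, the uracil phosphoribosyltransferase homologue, had 4.82 ± 0.537 and 4.33 ± 0.233 FPKM (-0.17, adjusted p = 0.13).

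Of the 5 interconversion enzymes, 1 was higher, 2 were lower and 2 were not called. Both lower genes, DCTD and DUT, make dUMP, the substrate of thymidylate synthase. DCTD, the dCMP deaminase, was at 26.1, 26.8 and 28.1 FPKM in shNC and 21.4, 22.5 and 24.2 FPKM in sh1, with no overlap (-0.26, SE 0.047, adjusted p = 0.00046). DUT, which hydrolyses dUTP and so keeps uracil out of DNA, was at 13.4, 16.7 and 22.9 FPKM in shNC and 9.23, 13.3 and 15.0 FPKM in sh1. The spread of DUT was wide. The highest value came from shNC replicate 1 and the lowest from sh1 replicate 3, and the groups overlapped (-0.43, SE 0.13, adjusted p = 0.019). Without shNC replicate 1 the DUT log2 fold change was -0.31 (adjusted p = 0.040).

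The adenylate kinases AK1, in the cytosol, and AK4, in mitochondria, exchange phosphates among adenine nucleotides. AK1 was at 0.440, 0.608 and 0.832 FPKM in shNC and 0.647, 1.08 and 1.23 FPKM in sh1. With 20 to 45 counts per library, AK1 was called higher although the groups overlapped (0.63, SE 0.19, adjusted p = 0.018), and the difference was 0.29 on the log2(FPKM + 1) scale. AK4 was at 12.1, 12.8 and 15.7 FPKM in shNC and 12.7, 15.1 and 17.5 FPKM in sh1 (0.17, SE 0.076, adjusted p = 0.10). It passed the threshold without sh1 replicate 2 or shNC replicate 3 (adjusted p = 0.029 and 0.024). CMPK1, the UMP and CMP kinase, had 59.3 ± 2.49 and 60.3 ± 3.06 FPKM (0.01, adjusted p = 0.93).

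Among the 7 breakdown enzymes, 1 was higher, 1 was lower and 5 were not called. ADA, adenosine deaminase, converts adenosine and deoxyadenosine to inosine and deoxyinosine. It was at 5.26, 5.72 and 6.86 FPKM in shNC and 7.08, 7.90 and 8.43 FPKM in sh1. Every sh1 library lay above every shNC library, and among the higher genes ADA was the one whose groups did not overlap (0.40, SE 0.075, adjusted p = 0.00072). DPYD, the rate-limiting enzyme of uracil and thymine breakdown, which also inactivates 5-fluorouracil, was at 5.51, 5.97 and 6.13 FPKM in shNC and 4.43, 4.86 and 5.11 FPKM in sh1, again with no overlap (-0.31, SE 0.056, adjusted p = 0.00067).

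The other breakdown genes were not called. PNP, the purine nucleoside phosphorylase, had 16.5 ± 1.99 and 17.1 ± 2.85 FPKM (0.04, adjusted p = 0.80). UPP1, the uridine phosphorylase, ranged from 5.12 to 13.0 FPKM in shNC and from 9.25 to 12.9 FPKM in sh1 (0.20, adjusted p = 0.34). CDA, the cytidine deaminase, had 6.09 ± 0.506 and 6.71 ± 0.809 FPKM (0.13, adjusted p = 0.38). SAMHD1, which hydrolyses dNTPs, had 3.76 ± 0.191 and 3.70 ± 0.171 FPKM (-0.04, adjusted p = 0.65). NT5E, the ecto-5'-nucleotidase CD73, was at 0.255 to 0.651 FPKM across the libraries (-0.29, SE 0.20, adjusted p = 0.32), on 13 to 59 counts per library.

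**Figure D2:**
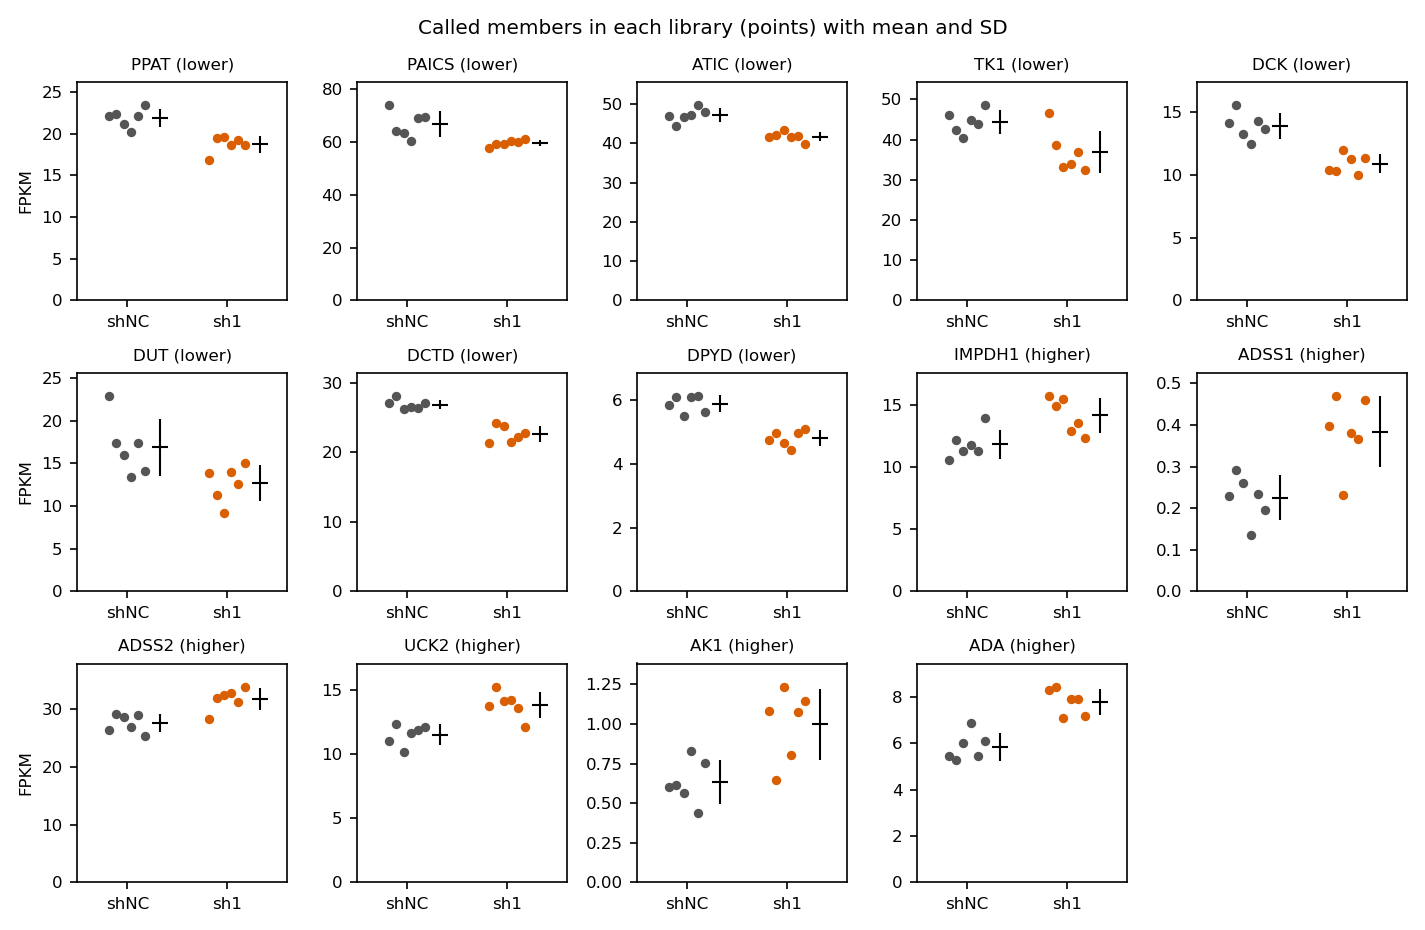
FPKM (vertical axis of each panel, starting at 0) of the 14 called genes, with shNC in grey and sh1 in orange. Each point is a library, the cross and bar beside them are the mean and SD (n = 6 per group), and PPAT, ATIC, DCK, DCTD, DPYD and ADA show no overlap between the groups.

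Set side by side, all 4 roles carried calls in both directions, and the differences between them were not tested. De novo synthesis had 3 higher and 3 lower of 18 genes (33.3% called, beside 26.1% of all tested genes, median log2 fold change -0.025). Its 3 higher genes all belong to the branch from IMP to AMP and GMP, and its 3 lower genes to the route to IMP. Salvage had 1 higher and 2 lower of 8 (37.5%, median -0.13), breakdown had 1 higher and 1 lower of 7 (28.6%, median 0.040), and interconversion had 1 higher and 2 lower of 5 (60.0%, median 0.0080). The medians of salvage and breakdown depend on where PNP, ADA, UPP1 and CDA are placed, since nucleoside phosphorylases and deaminases also feed salvage. Counted with salvage, they gave salvage a median of 0.052 (12 genes) and left breakdown at -0.29 (3 genes), so that the order turned. No order of the routes was therefore read from the medians.

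The 7 pairs of related enzymes were compared within each library by the log2 ratio of their FPKM, which does not depend on the scaling between libraries. None of the 7 differed between the groups at an adjusted p under 0.05 (exact two-sided permutation test over the 12 libraries, Benjamini-Hochberg over 7 pairs). The ADSS1/ADSS2 ratio differed by 0.57 (p = 0.022, adjusted p = 0.076, exact permutation test), and ADSS1 made up 0.803% ± 0.168 of the summed FPKM of the pair in shNC and 1.196% ± 0.269 in sh1. Without sh1 replicate 3 this difference was 0.72 (adjusted p = 0.030, exact permutation test). The UCK1/UCK2 ratio differed by -0.18 (p = 0.019, adjusted p = 0.076, exact permutation test), with UCK1 at 52.8% ± 1.98 of the pair in shNC and 49.6% ± 2.08 in sh1. Without shNC replicate 5 the difference was -0.22 (adjusted p = 0.030, exact permutation test). The AK1/AK4 ratio differed by 0.46 (adjusted p = 0.091), IMPDH1/IMPDH2 by 0.18 (adjusted p = 0.13) and CTPS1/CTPS2 by -0.19 (adjusted p = 0.13), all by the exact permutation test. The TK1/TK2 ratio differed by -0.15 (adjusted p = 0.48) and PRPS1/PRPS2 by -0.03 (adjusted p = 0.68) in the same exact test. In every pair but PRPS1/PRPS2 and UCK1/UCK2, 1 enzyme held most of the summed FPKM, as TK1 did with 96.5% of the thymidine kinase pair in shNC.

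**Figure D3:**
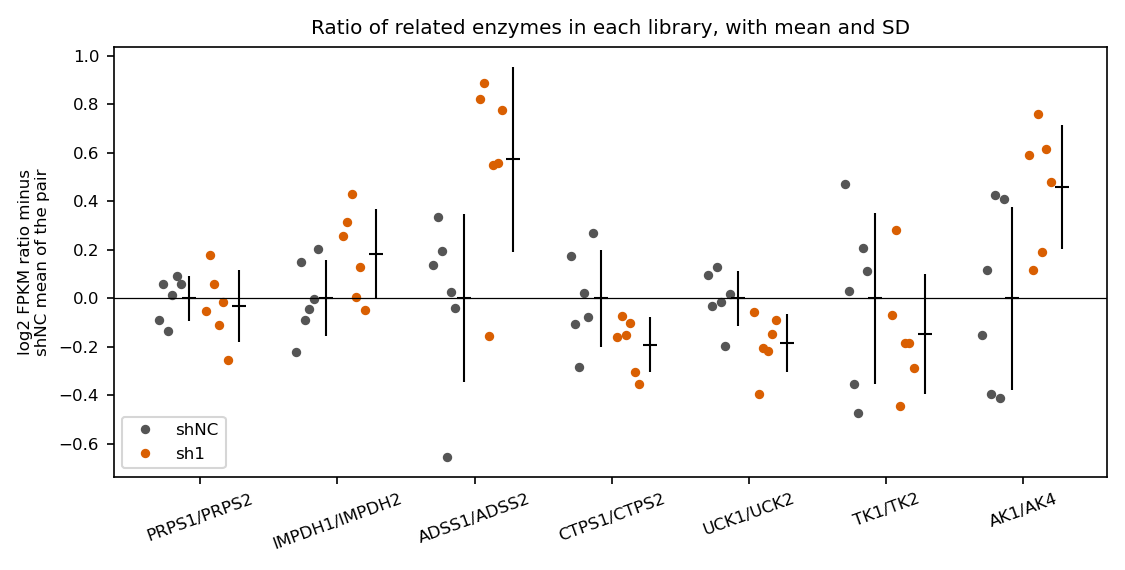
Log2 ratio of the FPKM of related enzymes in each library (vertical axis), minus the shNC mean of the pair, for 7 pairs. Grey points are shNC and orange points sh1 libraries, with the mean and SD (n = 6) beside them, and the groups overlap in every pair, with ADSS1/ADSS2 shifted by 0.57 and UCK1/UCK2 by -0.18.

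Some of these genes share genomic sequence with other transcribed genes, and the library kit does not mark strand. Of the 38, 10 overlap another tested gene, 7 of them on the opposite strand. Among the 14 called genes these are UCK2 (opposite TMCO1 and ENSG00000236364), DUT (opposite DUT-AS1), ADA (opposite PKIG), DCK (same strand as MOB1B) and DPYD (same strand as MIR137HG). None of these neighbours was called, and reads in the shared stretches cannot be assigned to 1 gene with certainty. By the same coordinates PPAT and PAICS do not overlap. The stretch printed at another RefSeq start of PAICS nevertheless lies within PPAT, on the opposite strand.

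Another 71 genes of the same pathways were listed, of which 55 were tested. Of these, 6 were higher and 10 lower (29.1% called, beside 26.1% of all tested genes, with a median log2 fold change of -0.057), a share near that of all genes. Of the 10 genes of dNTP and thymidylate synthesis, 1 was lower (NUDT1, which clears oxidised dNTPs) and 9 were not called, among them both main subunits of ribonucleotide reductase, RRM1 (-0.07) and RRM2 (-0.11), and the thymidylate synthase TYMS (0.06). Among 15 other nucleotide kinases, 2 were higher and 1 lower. The lower one, ADK, which phosphorylates adenosine to AMP, had the lowest log2 fold change of all tested pathway genes, going from 31.5, 32.9 and 34.9 FPKM in shNC to 20.9, 22.8 and 23.7 FPKM in sh1 without overlap (-0.57, SE 0.050, adjusted p = 4.0e-07). AK3, a mitochondrial GTP:AMP phosphotransferase, was higher, with 15.4 ± 0.754 and 18.8 ± 0.835 FPKM (0.27, adjusted p = 0.00074).

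Of 10 other nucleotidases and enzymes of catabolism, 4 were lower (40.0%, beside 13.3% of all tested genes), 0 higher and 6 not called. NT5C2, a cytosolic nucleotidase that prefers IMP and GMP, had 13.0 ± 0.598 and 10.5 ± 0.350 FPKM (-0.32, adjusted p = 7.5e-05). XDH, which oxidises hypoxanthine and xanthine to urate, had 2.17 ± 0.184 and 1.56 ± 0.233 FPKM (-0.50, adjusted p = 0.0010). ENTPD4, a nucleoside diphosphatase of internal membranes, had 15.9 ± 0.437 and 14.1 ± 0.569 FPKM (-0.19, adjusted p = 0.0026). It overlaps LOXL2 on the same strand, which had 5.03 times its mean count and was called higher (0.39, edgeR adjusted p = 0.00063). The folate-dependent one-carbon genes, whose products supply carbons to GART, ATIC and TYMS, had 2 higher, 4 lower and 4 not called. Their called share was 60.0%, beside 26.1% of all tested genes. MTHFD1, the trifunctional cytosolic enzyme, had 21.8 ± 1.11 and 17.8 ± 0.427 FPKM (-0.31, adjusted p = 0.00015). The mitochondrial MTHFD2L had 1.42 ± 0.134 and 1.11 ± 0.0971 FPKM (-0.37, adjusted p = 0.0043). ALDH1L1, which oxidises formyl-tetrahydrofolate, had 1.95 ± 0.183 and 2.42 ± 0.118 FPKM (0.30, adjusted p = 0.0023). Among 6 genes of purine control and deamination 1 was higher (16.7% called). Of 4 nucleoside transporters 1 was higher (25.0% called), beside 26.1% of all tested genes.

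TK1, DUT and several other genes of deoxynucleotide supply are transcribed mainly around S phase, so a list of 25 S phase genes was counted beside them. The list includes MKI67 (-0.12) and TOP2A (0.18), which mark proliferation and are not specific to S phase. Neither was called. Of the 25 genes, 12 were lower, 0 higher and 13 not called, with a median log2 fold change of -0.20. Among all tested genes, 13.3% were lower and 12.8% higher, and the median was -0.0035. The helicase subunit MCM5 had 13.2 ± 1.68 FPKM in shNC and 9.53 ± 0.677 FPKM in sh1 (-0.49, adjusted p = 0.00022). Among the other MCM genes listed, MCM3 (-0.20) and MCM4 (-0.23) were also lower. MCM2 (-0.18), MCM6 (-0.12) and MCM7 (-0.19) were not called. The replication factors CDC45 and CDC6 fell by 0.38 and 0.29 (adjusted p = 0.00025 and 0.0023), and the transcription factor E2F1 fell by 0.38 (adjusted p = 0.0023). The part of this shift in the lower levels of TK1, DCK, DUT and DCTD was not tested. RNA from a whole culture cannot tell fewer cells in S phase from less RNA per cell.

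**Figure D4:**
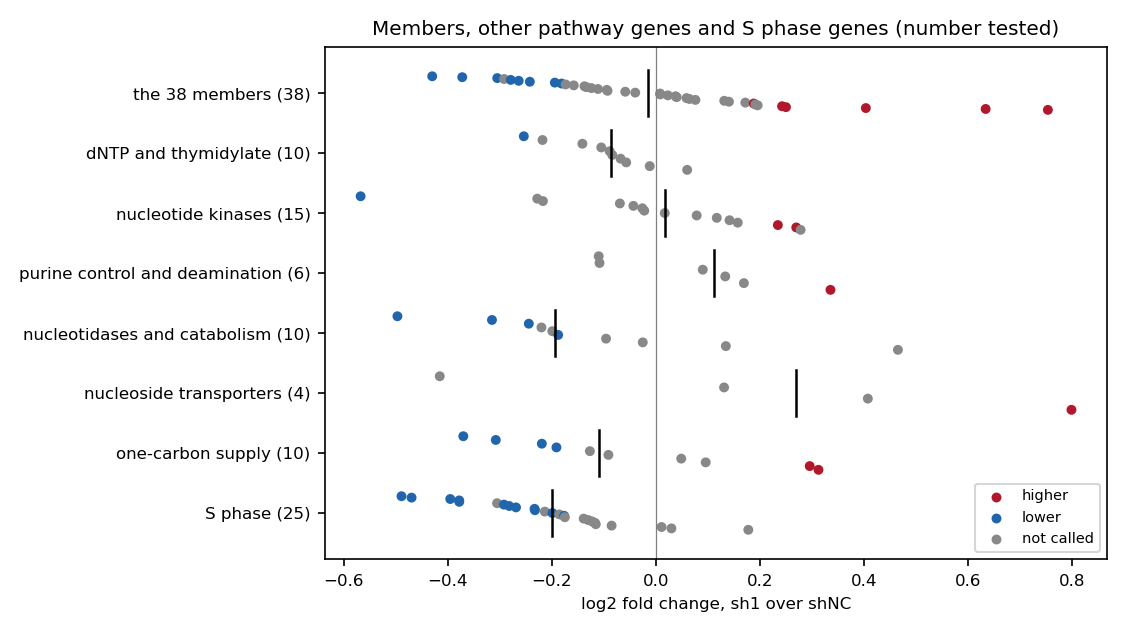
Log2 fold change (sh1 over shNC, horizontal axis) of every tested gene of the 38 members, 6 lists of other pathway genes and the S phase list, with the number tested in brackets. Each point is a gene, red if called higher, blue if called lower and grey if not called, and the vertical tick is the list's median, which lies at -0.016 for the 38 members and at -0.20 for the S phase genes.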

How the data were processed

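Polyadenylated RNA of 12 SJSA-1 libraries was sequenced as read pairs from a kit that does not mark strand. The authors aligned reads to GRCh38 with HISAT2 and deposited gene counts from featureCounts, FPKM values, and counts divided by 1 size factor per library (a signal, used here for an alternative scaling). Versions of these tools were not found in the labels or the methods. Rows that carry no Ensembl identifier (572, origin not stated) stayed in the totals and the test. The 38 genes and all gene lists were chosen with earlier results of these data known.

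The quasi-likelihood test of edgeR 4.0.16 (R 4.3.3, two-sided, TMM scaling, no covariates) was run over the 16489 genes that passed filterByExpr, with a common biological coefficient of variation of 0.106. Standard errors were obtained as log2 fold change over the square root of F. The lowest library held 11239638 counts. Values were given for every called gene and every paired enzyme of the 38, and for the 8 other pathway genes and 4 S phase genes with the smallest p-values among those called. Further genes were named after their values were seen. Coordinates come from GENCODE 44 and RefSeq (GRCh38.p14). Permutation tests used scipy 1.17.1. Alternatives were other scalings and filters, DESeq2 1.42.0, robust dispersion, limma 3.58.1 on log2 FPKM with 1 or 0.1 added, a block for the replicate number, leaving out each library, and a threshold of 0.01. The fit was tested on simulated data. The metabolome was not analysed here.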

Additional observations from a re-analysis of the deposited data

Results flagged for a closer look

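In a comparison of each group's most extreme library with the rest, which chance alone flags in about 1 in 20 groups of 6, 3 of 104 values were flagged (5.2 by chance). PPAT was at 16.9 FPKM in sh1 replicate 1, apart from 18.6 to 19.6 FPKM in the other sh1 libraries. APRT was at 23.5 FPKM in shNC replicate 6, apart from 17.9 to 19.3 FPKM in the other shNC libraries. The total gene count of sh1 replicate 3 was 11239638, apart from 14689309 to 16346022 in the other sh1 libraries.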

How the results depend on the processing

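All 14 calls among the 38 genes held under 10 of 11 alternatives of scaling, filter and tool, and the exception was the fit with the replicate number as a block, with 5 higher and 7 lower, where IMPDH1 (0.24, adjusted p = 0.060) and PAICS (-0.18, adjusted p = 0.061) were lost. Replicate numbers did not pair the libraries (correlations of the deviations of same-numbered libraries from -0.23 to 0.046), and no library correlated best with its own number. Leaving out each library gave 6 to 7 higher and 7 to 8 lower members, 5 to 7 higher and 7 to 11 lower other pathway genes, and a called RUNX2 throughout. Over the libraries left out, log2 fold changes ran from -0.020 to 0.048 (CTPS1), -0.010 to 0.045 (CMPK1) and -0.028 to 0.11 (PNP), and ratio differences from -0.073 to 0.013 (PRPS1/PRPS2), 0.44 to 0.72 (ADSS1/ADSS2) and -0.22 to -0.14 (UCK1/UCK2). At an adjusted p under 0.01, 3 members were higher and 5 lower. Signs turned for values near 0: CTPS1 (-0.020, -0.016 and -0.0093 without sh1 replicate 3, shNC replicate 3 and shNC replicate 4), CMPK1 (-0.010 without shNC replicate 6), PNP (-0.028 without sh1 replicate 3) and the PRPS1/PRPS2 ratio (0.013 without sh1 replicate 6). With PNP, ADA, UPP1 and CDA counted as salvage, the median was 0.052 for salvage and -0.29 for breakdown. The ADSS1/ADSS2 ratio reached 0.72 without sh1 replicate 3 and UCK1/UCK2 -0.22 without shNC replicate 5. ADSS1, AK1 and NT5E rest on under 60 counts in every library.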

Other observations

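The following genes that handle adenosine and AMP were put together after their values were seen, and are given as values only. ADK, which makes AMP from adenosine, was lower (-0.57), and ADA, which deaminates adenosine, was higher (0.40). AMPD2, which deaminates AMP to IMP, was at 7.88 to 12.1 FPKM in shNC and 11.98 to 14.2 FPKM in sh1 (0.34, SE 0.084, edgeR adjusted p = 0.0069). The plasma membrane transporter SLC29A1 was not called (0.13, adjusted p = 0.18), nor were AMPD3 (0.17, adjusted p = 0.15), ADAL (-0.11, adjusted p = 0.22), NT5E (-0.29, adjusted p = 0.32) and SLC29A3 (-0.42, adjusted p = 0.083). SLC29A4 rose from 0.247 ± 0.0854 to 0.433 ± 0.0711 FPKM (SD, n = 6, 0.80, adjusted p = 0.0079) on 15 to 48 counts per library. It overlaps TNRC18 on the opposite strand, which had 88.1 times its mean count and was not called (0.09). Reads in the shared stretch cannot be assigned with certainty.

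MTAP, the phosphorylase that returns adenine from methylthioadenosine to APRT, had 3 to 19 counts per library in both groups (0.0127 to 0.0687 FPKM) and was not tested. On chromosome 9 its neighbours CDKN2A and CDKN2B had 0 counts in 11 libraries and 1 count in the other. Further out on either side, KLHL9 had 1327 to 2400 counts (18.9 to 22.005 FPKM) and DMRTA1 92 to 162 counts (1.06 to 1.72 FPKM). These genes were looked up after the MTAP counts were seen.

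DUT and the replication clamp PCNA had their highest value in the same library, shNC replicate 1 (22.9 and 142 FPKM), and their lowest shNC value in shNC replicate 4 (13.4 and 77.9 FPKM). Several other genes of the S phase list shared both libraries, among them MCM4 (50.6 and 35.2 FPKM) and CDC6 (23.3 and 18.5 FPKM). Others did not, such as MCM7, with its highest value in shNC replicate 6 (83.2 FPKM). The shNC libraries thus differed among themselves in these genes, and the part of this in the comparison with sh1 was not tested. In sh1 PCNA stayed within 77.6 to 86.0 FPKM, while DUT ranged from 9.23 to 15.0 FPKM.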
